A study of Homo sapiens with 24 samples.

Results

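The metalloproteinases that cut the extracellular matrix and its receptors, and the proteins that inhibit them, were followed in 24 RNA sequencing libraries. All came from ARPE-19, a line of human retinal pigment epithelium (RPE). Members were taken by symbol, as every MMP, ADAM, ADAMTS or ADAMTSL gene with a plain number, TIMP1 to TIMP4 and RECK, which gave 73 of the 60623 genes in the table. The study asked how the amount of EMP2, a tetraspan membrane protein, bears on the response of RPE cells to low oxygen. It used 4 lines, EMP2 overexpressing cells (OE) and vector control cells (VC), both made by stable retroviral transduction, EMP2 knock down cells (KD), made with a lentiviral short hairpin RNA, and wild type cells (WT). Each line was sequenced after hypoxia, a chamber at 0.5% oxygen for 4 h by the labels, and after normoxia, with 3 libraries per group. The labels call the OE libraries of set 3 OE1 and those of the other sets OE2, do not name the KD clone, and list no line with a control short hairpin. Differences are therefore those of the lines, of which EMP2 is one property. The sources do not state whether replicates were cultured separately, and p-values then measure only how these libraries spread, possibly for technical reasons.

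The MMPs are zinc enzymes that are made as inactive proenzymes and cut collagens, laminins and other matrix proteins, either from solution or, in the membrane types, from the cell surface. ADAMs are membrane proteins, and those with a complete zinc motif shed growth factors and receptors. ADAMTS enzymes are secreted and cut proteoglycans or trim procollagens, while the ADAMTS-like (ADAMTSL) proteins share their domains but have no protease. The TIMPs block these enzymes, TIMP2 also takes part in the activation of MMP2 by MMP14, and RECK is a membrane-anchored inhibitor. In the eye, RPE cells lay down and turn over Bruch's membrane, where TIMP3 is stored, and TIMP3 variants cause Sorsby fundus dystrophy.

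The libraries held 10796813 to 19779450 counts, and levels are given as CPM, counts scaled to library size. A count of 0 leaves room for 3 counts, or 0.150 to 0.252 CPM depending on the library, by counting error only. EMP2 itself lay at 478 to 625 CPM in OE, 7.53 to 12.8 CPM in KD, 32.7 to 52.0 CPM in VC and 37.8 to 55.6 CPM in WT libraries. The first OE library in hypoxia stood apart, with gene counts at 64.9% of its uniquely mapped reads against 90.0% to 91.5% elsewhere, and the main fold changes of OE cells under hypoxia are therefore given with and without it. Of 10 RPE markers, 9 or 10 were over 1 CPM in each group, and their summed level was 2566 to 3393 CPM in OE, 3048 to 3961 CPM in KD and 1006 to 1334 CPM in VC against 4624 to 5122 CPM in WT libraries. That sum was mostly EFEMP1, and the markers did not move together. In normoxia RLBP1 averaged 51.6 CPM in OE against 4.00 CPM in WT cells, and TYRP1 3.95 against 62.7 CPM. SERPINF1 averaged 1.05 CPM in OE and 54.6 CPM in KD against 20.4 CPM in WT cells in normoxia. RPE65, the visual cycle isomerase, was at 0 in KD and VC cells in hypoxia and at most at 1.13 CPM in any group mean. Markers of 6 leukocyte genes summed to 5.55 to 7.01 CPM in VC libraries in normoxia and 2.84 to 3.61 CPM in hypoxia. In the other lines they summed to 1.27 CPM or less. CD14 averaged 4.55 CPM and ITGAM 1.63 CPM in VC cells in normoxia, while PTPRC was at 0.0760 CPM or less in every group. The sum of 6 epithelial markers was 434 to 623 CPM in OE, 251 to 285 CPM in KD and 929 to 1118 CPM in VC against 313 to 350 CPM in WT libraries, mostly KRT8. Among them EPCAM averaged 2.44 and 2.58 CPM in VC cells in hypoxia and normoxia and was at 0 in every other group. TP63 averaged 46.5 CPM in OE against 9.53 CPM in WT cells in normoxia. That of 6 endothelial markers was 2.07 to 5.03 CPM in OE, 30.9 to 44.7 CPM in KD and 43.0 to 47.8 CPM in VC against 6.80 to 10.4 CPM in WT libraries, with mean CDH5 at 0.192 CPM or less in every group and mean PECAM1 at 1.33 and 2.18 CPM in VC cells in hypoxia and normoxia and at 0.150 CPM or less elsewhere. EGFL7 made up most of the KD and VC sums, at 28.4 CPM in KD, 42.5 CPM in VC and 3.37 CPM in WT cells in normoxia. KDR averaged 5.24 CPM in KD, 0.0889 CPM in VC and 3.42 CPM in WT cells in normoxia. The part of these marker differences in the results below was not tested. Since these are bulk libraries, fewer cells with a transcript and less of it per cell cannot be told apart.

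Of the 73 members, 7 had no counts, 23 averaged 1 CPM or less, 15 lay between 1 and 10 CPM, 17 between 10 and 100 CPM and 11 above 100 CPM. Per kb of exon, the highest levels in WT cells in normoxia were those of MMP14 (494 CPM per kb), TIMP3 (333), TIMP2 (254), TIMP1 (247) and MMP2 (104), all 5 at or above the 98.9th percentile of 24759 genes with a length. Next came ADAM15, ADAM9, ADAMTS12, MMP15 and ADAM12, at 35.3 to 19.7 CPM per kb. The mRNA of this system in ARPE-19 cells was thus mostly that of MMP14, its substrate MMP2 and 3 TIMPs.

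The summed MMP level in normoxia was 2578 ± 192 CPM in OE, 2449 ± 52.8 CPM in KD, 956 ± 29.3 CPM in VC and 2984 ± 58.9 CPM in WT cells (SD, n = 3 each). That of the TIMPs was 3488 ± 238, 2879 ± 65.6, 1440 ± 88.7 and 3468 ± 124 CPM in the same order. In hypoxia the MMP sums were 2721 ± 584 CPM in OE, 2758 ± 73.7 CPM in KD, 945 ± 54.8 CPM in VC and 3273 ± 122 CPM in WT cells (SD, n = 3 each). The makeup of the sum differed between lines. MMP2 was 58.0% of it in OE cells in normoxia and 64.5% in hypoxia, whereas MMP14 was the leading MMP elsewhere, at 79.8% in KD, 58.8% in VC and 76.6% in WT cells in normoxia. Among TIMPs, TIMP3 led in OE cells (64.0% in normoxia) and TIMP2 in KD (47.7%) and WT cells (45.6%).

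**Figure D1:**
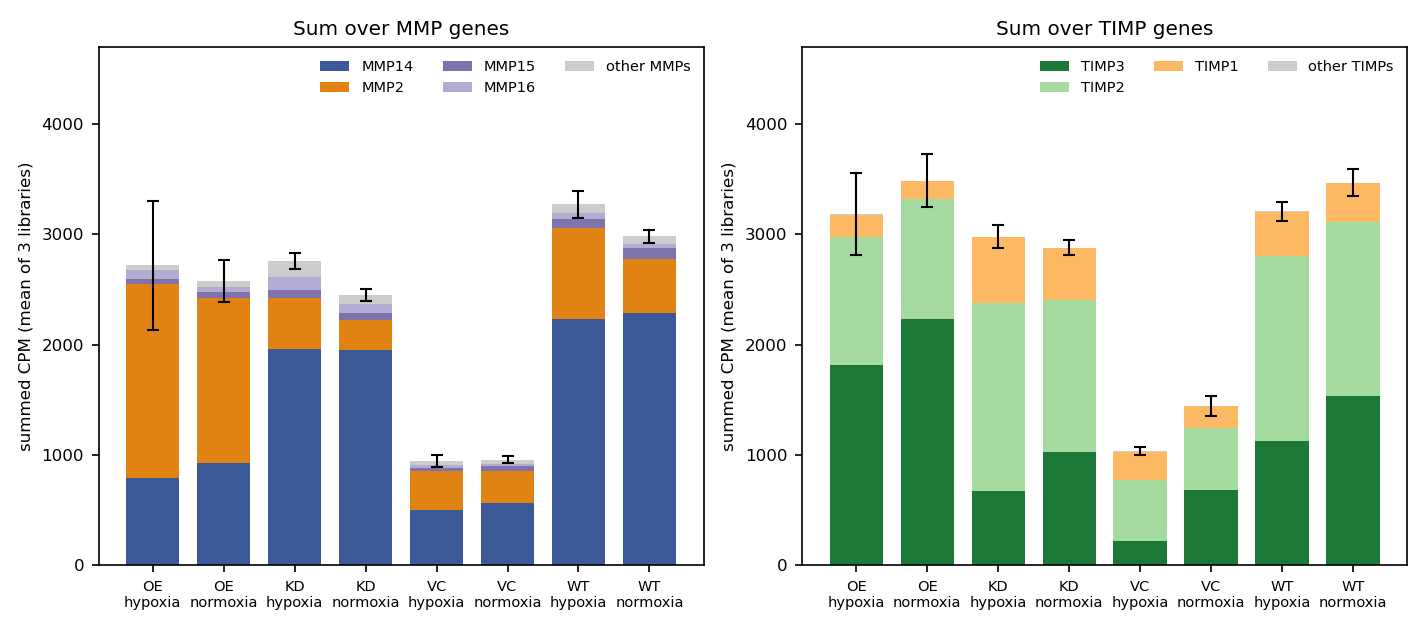
Mean CPM of the MMPs (MMP14, MMP2, MMP15, MMP16 and all others, stacked) and of the TIMPs in the 4 lines in hypoxia and normoxia, with bars for the SD of the total over 3 libraries. VC cells have the lowest totals, 956 CPM for MMPs in normoxia against 2984 CPM in WT cells, and in OE cells MMP2 takes the place of MMP14 as the largest share.

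Members were tested for a difference between groups in a fit over all 24873 genes with at least 10 counts (edgeR, Benjamini-Hochberg adjusted p under 0.01, the call used throughout), which included 60 members. In OE against WT cells in normoxia 27 of the 60 were called, 10 higher and 17 lower, where 19.7% of all genes were called (9.48% higher and 10.2% lower). In KD against WT cells in normoxia 26 were called, 7 higher and 19 lower, where 16.3% of all genes were called (6.61% higher, 9.71% lower). In VC against WT cells in normoxia 34 were called, 13 higher and 21 lower, where 35.8% of all genes were called (19.8% higher, 16% lower). Among the 43 members with a mean of at least 1 CPM the called shares were 60.5% for OE, 60.5% for KD and 74.4% for VC, beside 32.2%, 27.3% and 55.0% of the 13922 genes at that level. These 3 comparisons share the WT libraries, so their lists of genes are not independent. A joint test of OE, KD and WT cells called 36 members in normoxia, where 31.4% of all genes were called, and 35 in hypoxia, where 38% were.

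In hypoxia, 25 members were called in OE against WT cells, 8 higher and 17 lower, where 26.6% of all genes were called (13.6% higher, 13% lower). Without the first OE library in hypoxia 28 were called, the same 25 and MMP10, ADAM10 and ADAMTS7. KD against WT cells had 20 members called in hypoxia, 9 higher and 11 lower, where 18.2% of all genes were called (8.91% higher, 9.31% lower). VC against WT cells had 36, 13 higher and 23 lower, where 39.9% of all genes were called (21.9% higher, 18% lower). Set against their vector control, OE cells had 35 members called in normoxia, 21 higher and 14 lower, where 33.5% of all genes were called (15.4% higher, 18.1% lower). In hypoxia 41 members were called in OE against VC cells, 22 higher and 19 lower, where 38.2% of all genes were called (17.9% higher, 20.3% lower), and 42 without the first OE library, which added MMP25 and MMP28 and lost ADAMTSL5.

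**Figure D2:**
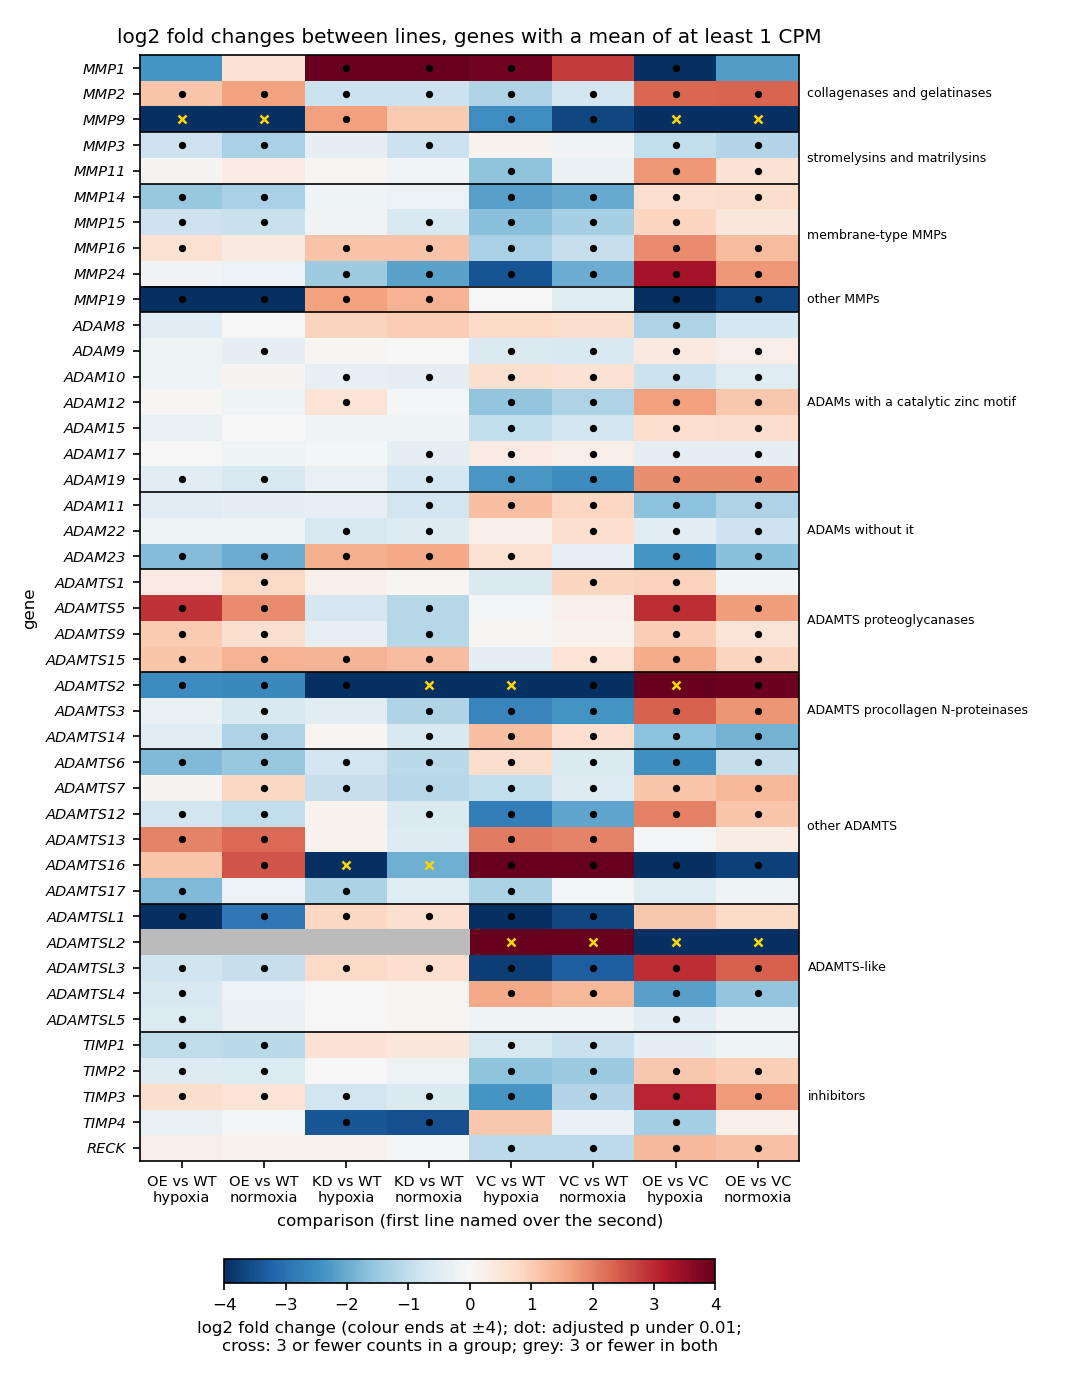
Log2 fold change of OE, KD and VC over WT cells and of OE over VC cells, in hypoxia and normoxia, for the 43 members with a mean of at least 1 CPM, grouped by role. Colour runs from -4 to 4, a dot marks an adjusted p under 0.01, a cross marks a group with 3 or fewer counts and grey a pair of such groups. VC cells hold most calls against WT, 36 of 60 tested members in hypoxia, where 39.9% of all genes were called (26.6% in OE and 18.2% in KD cells). At both oxygen levels MMP19, ADAM23, ADAMTSL1 and ADAMTSL3 are called lower in OE and higher in KD than in WT cells, and MMP2 and TIMP3 the other way. MMP9, ADAMTS5, ADAMTS7 and ADAMTS9 are called in opposite directions at 1 oxygen level.

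MMP9, the gelatinase that cuts basement membrane collagen (chromosome 20, 46008908 to 46016561, plus strand, GRCh38), was nearly absent from OE cells. In hypoxia its levels were 0, 0 and 0 CPM in OE, 84.8, 71.0 and 77.5 CPM in KD, 4.79, 4.37 and 4.18 CPM in VC, and 22.9, 24.9 and 27.8 CPM in WT libraries. In normoxia they were 0, 0.0552 and 0.0697 CPM in OE, 19.9, 21.8 and 31.1 CPM in KD, 0.957, 0.752 and 1.12 CPM in VC, and 20.1, 5.80 and 8.82 CPM in WT libraries. The 4 lines did not overlap in hypoxia, while in normoxia a WT library lay between the KD libraries. The OE libraries held 0 counts in hypoxia against 1137 in WT libraries, at least 370-fold lower, and 2 counts against 604 in normoxia, 283-fold lower (95% counting interval 78.0 to 2341). In KD cells MMP9 was higher in hypoxia (log2 fold change 1.63 ± 0.28 over WT, SE; edgeR, adjusted p = 0.000362) and its 1.06 ± 0.30 in normoxia did not pass (edgeR, adjusted p = 0.0180). VC cells were lower, by log2 fold changes of -3.63 ± 0.46 in normoxia (edgeR, adjusted p = 6.42e-06) and -2.50 ± 0.34 in hypoxia. Against VC cells, OE cells were at least 65.6-fold lower in hypoxia and 22.5-fold lower in normoxia (5.89 to 191, 2 counts against 47, adjusted p = 0.0218 in edgeR and not called). The calls of OE and VC against WT in normoxia were lost in fits of the compared libraries alone (edgeR, adjusted p = 0.0121 and 0.0167). That of KD in hypoxia was lost without replicate 3 of every group (edgeR, adjusted p = 0.0184). The antisense gene SLC12A5-AS1 overlaps 18.4% of its exon length, and with the strand setting of the counting not stated, reads of the pair cannot be told apart.

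MMP2, the other gelatinase (chromosome 16, 55389700 to 55506691, plus strand), was called in the direction opposite to MMP9 in OE cells. Its levels in normoxia were 1370, 1440 and 1685 CPM in OE, 234, 269 and 305 CPM in KD, 296, 267 and 323 CPM in VC, and 517, 459 and 495 CPM in WT libraries. All OE libraries were above and all KD and VC libraries below WT. The log2 fold changes in normoxia were 1.61 ± 0.14 for OE (edgeR, adjusted p = 8.03e-09), -0.86 ± 0.14 for KD and -0.73 ± 0.14 for VC over WT. In hypoxia OE libraries had 1302, 1899 and 2074 CPM, KD 409, 453 and 501, VC 382, 316 and 384, and WT 729, 844 and 893 CPM. OE libraries were again above and KD and VC libraries below WT, with KD above VC in hypoxia, while the KD and VC libraries overlapped in normoxia. The log2 fold change in hypoxia was 1.10 ± 0.14 for OE and 1.25 without its first library, -0.86 ± 0.14 for KD and -1.19 ± 0.14 for VC. OE exceeded VC cells by 2.34 ± 0.15 in normoxia and 2.29 ± 0.15 in hypoxia (2.45 without the first OE library). Without replicate 2 of every group the KD calls at both oxygen levels and the VC call in normoxia were lost (edgeR, adjusted p = 0.0109 to 0.0139).

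MMP1, the interstitial collagenase (chromosome 11, 102789401 to 102798160, minus strand), was low in OE and WT cells and variable in KD cells. In hypoxia it was 0.0826, 0.234 and 0.134 CPM in OE, 34.1, 8.68 and 11.5 CPM in KD, 10.2, 14.0 and 12.9 CPM in VC, and 0.758, 0.892 and 0.870 CPM in WT libraries. In normoxia it was 0.186, 0.276 and 0.139 CPM in OE, 4.07, 20.2 and 5.71 CPM in KD, 0.766, 0.953 and 1.26 CPM in VC, and 0.165, 0.102 and 0.143 CPM in WT libraries. Every KD and VC library was above every WT library at the same oxygen level. KD cells were higher by 6.15 ± 0.89 in normoxia (edgeR, adjusted p = 4.04e-05) and 4.42 ± 0.66 in hypoxia (edgeR, adjusted p = 4.94e-05). In fits of the compared libraries alone both calls were lost (edgeR, adjusted p = 0.0330 in normoxia and 0.0272 in hypoxia). VC cells were higher by 3.87 ± 0.67 in hypoxia (edgeR, adjusted p = 8.74e-05, and 0.0109 without replicate 3 of every group), while 2.80 ± 1.26 in normoxia did not pass (edgeR, adjusted p = 0.0861). MMP1 lies on chromosome 11 with MMP7, MMP20, MMP27, MMP8, MMP10, MMP3, MMP12 and MMP13, between 102520508 and 102955732. MMP3, the stromelysin that cuts proteoglycans, was the only one of these with a mean over 1 CPM in WT cells in normoxia, at 1.61 CPM in OE, 2.16 CPM in KD, 3.64 CPM in VC and 3.97 CPM in WT cells. It was called lower in OE cells in normoxia (log2 fold change -1.30 ± 0.24; edgeR, adjusted p = 5.86e-05).

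MMP14, the membrane-type enzyme that activates MMP2 (chromosome 14, 22836560 to 22849041, plus strand), had 918, 906 and 941 CPM in OE, 1951, 1933 and 1977 CPM in KD, 585, 551 and 548 CPM in VC, and 2317, 2303 and 2235 CPM in WT libraries in normoxia. The 4 lines did not overlap. Under hypoxia the values were 602, 868 and 899 CPM in OE, 1934, 1955 and 2004 CPM in KD, 496, 479 and 515 CPM in VC, and 2246, 2168 and 2292 CPM in WT libraries. Over WT, its log2 fold change in OE cells was -1.31 ± 0.09 in normoxia (edgeR, adjusted p = 4.50e-13) and -1.50 ± 0.09 in hypoxia (-1.36 without the first OE library). In VC cells it was -2.03 ± 0.09 and -2.17 ± 0.09. Its values in KD cells, -0.23 ± 0.09 and -0.19 ± 0.09, did not pass (edgeR, adjusted p = 0.0669 in normoxia and 0.136 in hypoxia). OE cells held more MMP14 than VC cells, by 0.72 ± 0.09 in normoxia and 0.67 ± 0.09 in hypoxia (0.81 without the first OE library). The direction in OE cells thus depended on whether WT or VC cells were the comparison. In hypoxia TIMP2, MMP15, ADAM19, ADAMTS2, ADAMTS12 and ADAMTSL3 were likewise called lower than WT and higher than VC in OE cells. MMP3, MMP9, MMP19, ADAM23, ADAMTS6, ADAMTSL4 and ADAMTSL5 were called lower in OE cells against both.

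Of the 6 membrane-type MMPs, 2 were lower and 0 higher in OE, 2 lower and 1 higher in KD, and 4 lower and 0 higher in VC against WT cells in normoxia, with median log2 fold changes of -0.72, -0.52 and -1.12 beside 0.00, 0.00 and 0.03 over all genes. Of all genes 10.2% were lower and 9.48% higher in OE cells. The shares were 9.71% and 6.61% in KD and 16% and 19.8% in VC cells. MMP16, which also activates MMP2, had 80.6, 73.0 and 81.8 CPM in KD, 18.4, 18.3 and 20.6 CPM in VC, and 40.2, 30.6 and 37.1 CPM in WT libraries in normoxia. It was higher in KD cells (1.13 ± 0.10 at both oxygen levels; edgeR, adjusted p = 6.17e-10 in normoxia), and lower in VC cells (-0.91 ± 0.11 in normoxia). In OE cells it was higher in hypoxia (0.60 ± 0.10, and 0.54 without the first OE library). MMP24, a membrane-type MMP best known from neurons, had 22.7, 22.0 and 22.2 CPM in OE, 6.78, 5.86 and 5.40 CPM in KD, 7.40, 6.57 and 6.15 CPM in VC, and 22.6, 27.0 and 29.3 CPM in WT libraries in normoxia. KD and VC libraries lay below all OE and WT libraries, with log2 fold changes over WT of -2.13 ± 0.12 for KD (edgeR, adjusted p = 1.03e-14) and -1.97 ± 0.12 for VC. In hypoxia they were -1.42 ± 0.12 and -3.46 ± 0.15, and OE cells were not called at either level. MMP24OS overlaps 18.4% of the exon length of MMP24 on the other strand. MMP15 was lower in OE (-0.89 ± 0.14), KD (-0.61 ± 0.14) and VC cells (-1.34 ± 0.14) in normoxia, where the KD call was lost without KD replicate 2 or 3 or WT replicate 2 (edgeR, adjusted p = 0.0138 to 0.0185). Relative to VC cells, MMP15 was higher in OE cells in hypoxia, by 0.85 (1.04 without the first OE library).

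MMP19, a secreted MMP of basement membranes (chromosome 12, 55835433 to 55842966, minus strand), followed the order KD, WT, OE at both oxygen levels. In normoxia it had 0.249, 0.331 and 0.418 CPM in OE, 16.5, 16.2 and 15.4 CPM in KD, 3.96, 4.16 and 4.96 CPM in VC, and 6.14, 6.30 and 5.88 CPM in WT libraries. In hypoxia it had 0.661, 0.234 and 0.134 CPM in OE, 17.8, 16.5 and 15.1 CPM in KD, 6.34, 4.71 and 5.03 CPM in VC, and 4.93, 4.59 and 6.89 CPM in WT libraries. OE and KD libraries stood clear of the others on either side, while VC and WT libraries overlapped in hypoxia. Over WT, OE cells were lower by -4.18 ± 0.27 in normoxia (edgeR, adjusted p = 7.78e-14) and -4.06 ± 0.28 in hypoxia (-4.83 without the first OE library). KD cells were higher by 1.39 ± 0.16 in normoxia (edgeR, adjusted p = 3.28e-08) and 1.60 ± 0.16 in hypoxia. OE cells were also lower than VC cells, by -3.69 ± 0.28 in normoxia and -4.04 ± 0.28 in hypoxia (-4.80 without the first OE library). VC cells were not called against WT (edgeR, adjusted p = 0.02 in normoxia and 0.969 in hypoxia). TMEM198B overlaps 17.6% of the exon length of MMP19 on the other strand. MMP28, a secreted MMP of epithelia, was the most raised called MMP of OE cells in normoxia, with 2.05, 1.88 and 2.30 CPM in OE against 0.110, 0.102 and 0.358 CPM in WT libraries (log2 fold change 3.48 ± 0.54; edgeR, adjusted p = 6.27e-06).

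**Figure D3:**
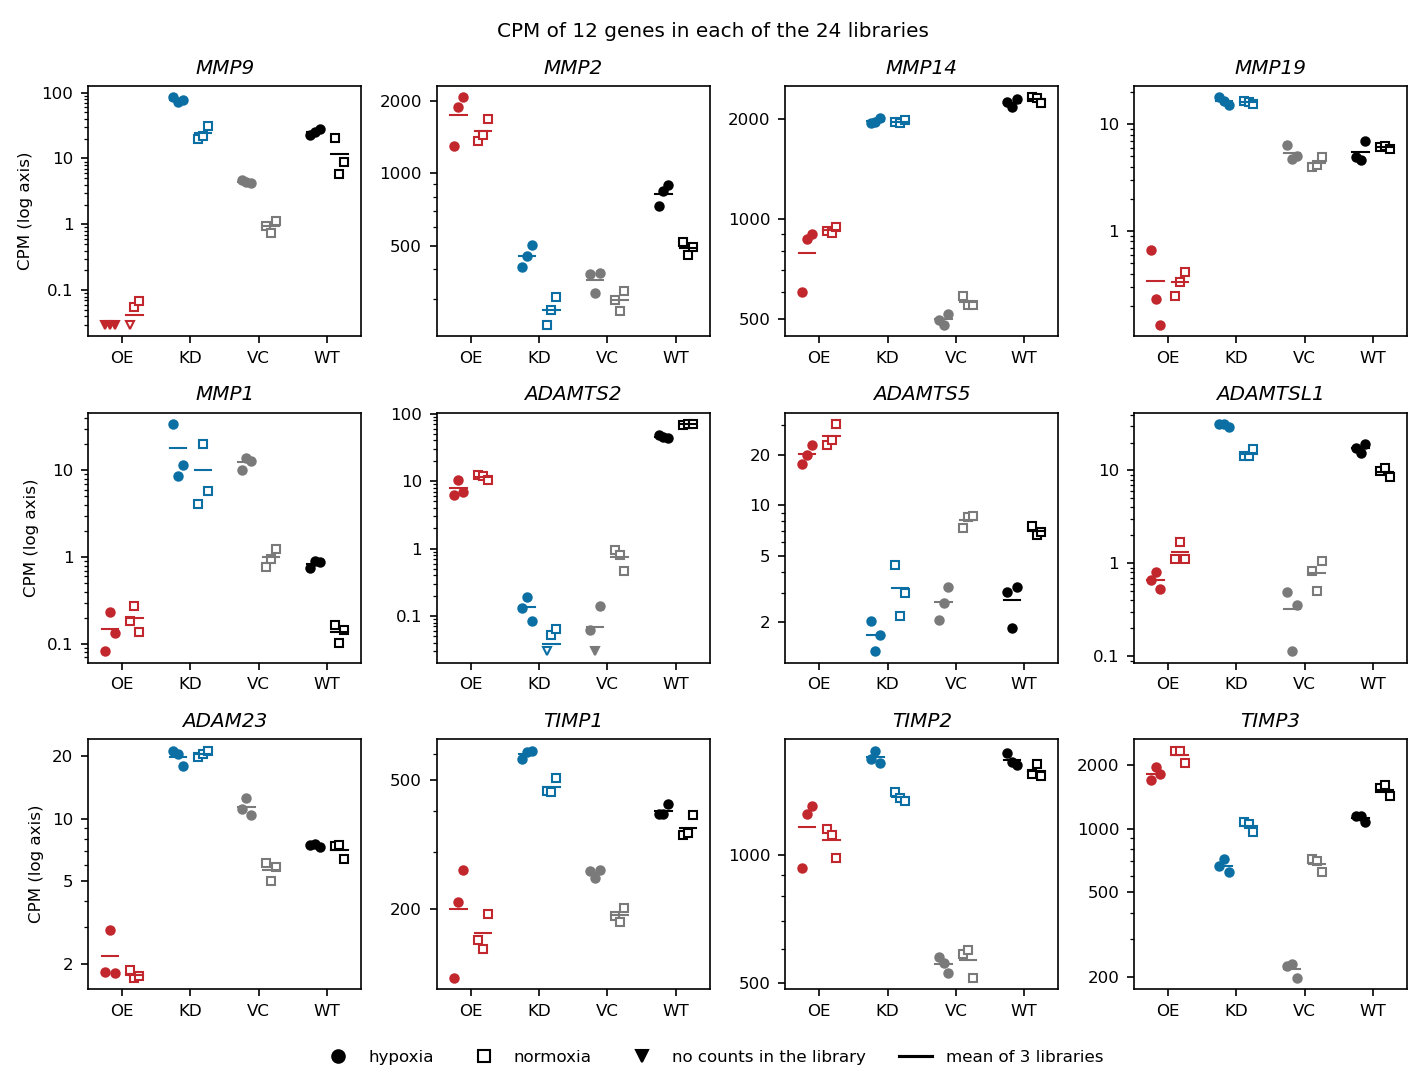
CPM on a log axis of 12 members in every library, with OE, KD, VC and WT from left to right, filled circles for hypoxia, open squares for normoxia, triangles at the foot of a panel for libraries with no counts and lines for the mean of 3. MMP9 has no counts in the 3 OE libraries in hypoxia and 71.0 to 84.8 CPM in KD, and ADAMTS2 lies at 68.8 to 70.3 CPM in WT cells in normoxia and below 0.1 CPM in KD cells.

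Of the 10 tested ADAMs with a complete zinc motif, in normoxia 0 were higher and 2 lower in OE, 0 higher and 3 lower in KD, and 3 higher and 4 lower in VC against WT cells, with medians of -0.27, -0.12 and -0.20 beside 0.00, 0.00 and 0.03 over all genes. The shares of all genes called higher and lower were 9.48% and 10.2% in OE, 6.61% and 9.71% in KD, and 19.8% and 16% in VC cells. ADAM10, the sheddase of Notch and cadherins, was lower in KD cells (-0.37 ± 0.07 in normoxia; edgeR, adjusted p = 0.00019, and 0.0143 without WT replicate 1 or 0.0527 without replicate 2 of every group) and higher in VC cells (0.57 ± 0.07). ADAM17, which sheds TNF and EGF receptor ligands, was lower in KD cells in normoxia (-0.35 ± 0.06; edgeR, adjusted p = 7.01e-05, and 0.0131 and 0.0104 without replicate 2 or replicate 3 of every group). ADAM12, which is raised in tissue remodelling, and ADAM19 were lower in VC cells, by -1.24 ± 0.08 and -2.51 ± 0.13 in normoxia. ADAM9 had 410, 417 and 434 CPM in OE against 546, 515 and 549 CPM in WT libraries in normoxia. It was lower in OE (-0.35 ± 0.07) and VC cells (-0.62 ± 0.07) in normoxia, and ADAM15 in VC cells (-0.74 ± 0.12). ADAM9 was higher in OE than in VC cells in hypoxia, by 0.37 with and without the first OE library. ADAM28, known from lymphocytes and epididymis, was read in VC cells, with 1.60, 2.66 and 2.12 CPM in normoxia against 0.219, 0 and 0.0717 CPM in WT libraries, and at most 0.254 CPM in any OE, KD or WT library. Its log2 fold change in VC cells was 4.35 ± 0.65 in normoxia (edgeR, adjusted p = 2.03e-06), and in hypoxia VC libraries held 146 counts against 2 in WT libraries, 69.2-fold more (95% counting interval 18.8 to 577).

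ADAM23, which lacks the zinc motif and binds integrins and LGI1 in neurons (chromosome 2, 206443532 to 206621127, plus strand), was the member of this class with the clearest order of lines. In normoxia it had 1.86, 1.71 and 1.74 CPM in OE, 19.7, 20.4 and 21.3 CPM in KD, 6.13, 5.01 and 5.82 CPM in VC, and 7.35, 7.42 and 6.38 CPM in WT libraries. Under hypoxia the values were 1.82, 2.92 and 1.80 CPM in OE, 21.1, 20.4 and 17.9 CPM in KD, 11.1, 12.6 and 10.4 CPM in VC, and 7.46, 7.51 and 7.32 CPM in WT libraries. OE libraries were the lowest and KD libraries the highest at both levels, with no overlap. The log2 fold changes over WT were -1.99 ± 0.16 for OE (edgeR, adjusted p = 1.28e-11) and 1.53 ± 0.12 for KD (edgeR, adjusted p = 2.45e-11) in normoxia. In hypoxia they were -1.74 ± 0.16 for OE (-1.66 without its first library) and 1.42 ± 0.12 for KD, and VC cells were higher by 0.61 ± 0.13.

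The ADAMTS proteoglycanases, which cut aggrecan and versican, were mostly higher in OE cells. In normoxia 4 of the 5 tested were higher and 0 lower in OE, 1 higher and 2 lower in KD, and 2 higher and 0 lower in VC against WT cells, with medians of 1.40, 0.07 and 0.56 beside 0.00, 0.00 and 0.03 over all genes. The shares of all genes called higher and lower were 9.48% and 10.2% in OE, 6.61% and 9.71% in KD, and 19.8% and 16% in VC cells. ADAMTS5, the main aggrecanase of cartilage (chromosome 21, 26917922 to 26967088, minus strand), had 22.7, 24.5 and 30.5 CPM in OE, 4.38, 2.18 and 2.98 CPM in KD, 7.28, 8.52 and 8.66 CPM in VC, and 7.52, 6.61 and 6.95 CPM in WT libraries in normoxia. The hypoxia values were 17.7, 19.9 and 22.8 CPM in OE, 2.04, 1.34 and 1.68 CPM in KD, 2.05, 2.61 and 3.26 CPM in VC, and 3.03, 1.85 and 3.26 CPM in WT libraries. OE libraries were above all others at both levels, and KD libraries were below the WT libraries in normoxia but overlapped them in hypoxia. OE cells were higher by 1.88 ± 0.17 in normoxia (edgeR, adjusted p = 5.91e-10) and 2.90 ± 0.20 in hypoxia (2.96 without the first OE library). KD cells were lower by -1.16 ± 0.20 in normoxia (edgeR, adjusted p = 6.01e-05, and 0.0112 without replicate 2 of every group). VC cells were not called, at 0.22 ± 0.18 and -0.04 ± 0.24. ADAMTS9 was likewise higher in OE (0.64 ± 0.13 in normoxia and 1.06 ± 0.14 in hypoxia, 1.13 without the first OE library) and lower in KD cells in normoxia (-1.14 ± 0.14), and its OE call in normoxia was lost without replicate 3 of every group (edgeR, adjusted p = 0.0137). ADAMTS15 was higher in OE and KD cells alike, by 1.40 ± 0.13 and 1.24 ± 0.13 in normoxia and 1.12 ± 0.13 (1.26 without the first OE library) and 1.37 ± 0.13 in hypoxia.

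ADAMTS2, the enzyme that trims the amino end of fibrillar procollagens (chromosome 5, 179110853 to 179345461, minus strand), was the most strongly lowered member in KD and VC cells. In normoxia it had 12.2, 12.1 and 10.3 CPM in OE, 0, 0.0519 and 0.0635 CPM in KD, 0.957, 0.802 and 0.463 CPM in VC, and 68.8, 69.8 and 70.3 CPM in WT libraries. In hypoxia it had 6.28, 10.5 and 6.88 CPM in OE, 0.131, 0.192 and 0.0840 CPM in KD, 0.0622, 0 and 0.142 CPM in VC, and 47.5, 45 and 43.4 CPM in WT libraries. WT libraries were above all others, and OE libraries above those of KD and VC. OE cells were lower than WT by -2.59 ± 0.13 in normoxia (edgeR, adjusted p = 3.64e-16) and -2.50 ± 0.14 in hypoxia (-2.40 without the first OE library). KD libraries held 2 counts against 3609 in WT libraries in normoxia, 1784-fold fewer (95% counting interval 493 to 14733). In hypoxia they held 6 counts, and the log2 fold change was -8.26 ± 0.26. VC cells were lower by -6.53 ± 0.19 in normoxia, where they held 38 counts. In hypoxia VC cells held 3 counts against 2057, 723-fold fewer (247 to 3511). At such low counts the SE understates the counting error. OE cells were higher than VC cells, by 3.94 ± 0.21 in normoxia. The order of lines was thus WT, OE, VC, KD in normoxia, while EMP2 was low in KD, near the WT level in VC and high in OE cells. The part of EMP2 in this order was not tested.

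The bases before the start site of ADAMTS2 are shown because its level was lower in every OE, KD and VC library than in any WT library. They come from RefSeq (GRCh38.p14, chr5:179345462-179345711, minus strand, printed 5′ to 3′ up to the start), with capitals at the GC box GGGCGG or its reverse complement, at positions -174, -111, -21 and -17 from the start, of which the last 2 overlap. Within 250 bases before and 50 after the start, this motif was found on either strand in 30 of the 44 members with an entry (68.2%) and in 45% of 35116 promoters, and such a match is a description and not a site.
ADAMTS2: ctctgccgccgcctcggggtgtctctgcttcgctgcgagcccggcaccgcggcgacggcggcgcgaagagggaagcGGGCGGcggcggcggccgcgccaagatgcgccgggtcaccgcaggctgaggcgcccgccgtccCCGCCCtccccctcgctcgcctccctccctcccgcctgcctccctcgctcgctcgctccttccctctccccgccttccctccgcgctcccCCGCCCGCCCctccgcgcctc

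The other procollagen N-proteinases, ADAMTS3 and ADAMTS14, were lower in OE and KD cells in normoxia, so that all 3 of the class were called lower in both lines. Of all genes 10.2% were lower in OE and 9.71% in KD cells. ADAMTS3 had 5.84, 4.80 and 5.85 CPM in OE, 4.19, 3.22 and 3.62 CPM in KD, 1.47, 1.75 and 1.59 CPM in VC, and 8.56, 7.63 and 9.10 CPM in WT libraries. ADAMTS14 was lower in OE (-1.23 ± 0.15) and KD cells (-0.59 ± 0.15) and higher in VC cells (0.67 ± 0.14). The OE call of ADAMTS3 and the KD call of ADAMTS14 were each lost without 1 of several libraries (edgeR, adjusted p of up to 0.0173 without OE replicate 2 for ADAMTS3, and up to 0.0366 without WT replicate 3 for ADAMTS14). In hypoxia only ADAMTS2 of the 3 was called in OE or KD cells.

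Among the other ADAMTS genes, ADAMTS13, the protease of von Willebrand factor, had 7.52, 7.89 and 6.62 CPM in OE, 1.36, 0.934 and 0.889 CPM in KD, 6.83, 6.42 and 4.83 CPM in VC, and 1.65, 1.27 and 1.65 CPM in WT libraries in normoxia. It was higher than WT in both retrovirally transduced lines, by 2.28 ± 0.19 in OE (edgeR, adjusted p = 2.72e-11) and 1.99 ± 0.19 in VC cells, and OE did not pass against VC cells (0.28 ± 0.16; edgeR, adjusted p = 0.174). ADAMTS16 was read mostly in VC cells, with 7.34, 7.02 and 9.91 CPM in normoxia against 0, 0.102 and 0.215 CPM in WT libraries (log2 fold change 6.27 ± 0.48; edgeR, adjusted p = 3.17e-11). ADAMTS12, which cuts COMP in cartilage, had 150, 145 and 137 CPM in OE, 180, 183 and 212 CPM in KD, 70.3, 64.5 and 65.8 CPM in VC, and 296, 289 and 275 CPM in WT libraries in normoxia. WT libraries were above all others for ADAMTS12, with log2 fold changes of -0.99 ± 0.08, -0.58 ± 0.08 and -2.10 ± 0.08 in OE, KD and VC cells. ADAMTS17, which is linked to lens and short stature disorders, had 1.12, 1.15 and 1.01 CPM in KD against 2.97, 2.36 and 2.54 CPM in WT libraries in hypoxia (-1.25 ± 0.30). That call was lost without KD replicate 3 or WT replicate 1 (edgeR, adjusted p = 0.0103 and 0.0127). ADAMTS6, which acts on fibrillin microfibrils, was lower in all 3 lines in normoxia, by -1.51 ± 0.13 in OE, -1.09 ± 0.12 in KD and -0.57 ± 0.12 in VC cells. ADAMTS7, which also cuts COMP, was higher in OE (0.82 ± 0.15) and lower in KD cells (-1.13 ± 0.16) in normoxia. Its near-identical pseudogene copies make the split of its reads uncertain, and the OE call was lost without replicate 2 or replicate 3 of every group (edgeR, adjusted p = 0.0164 and 0.0122).

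The ADAMTS-like genes included some of the largest differences. ADAMTSL1 (chromosome 9, 17906563 to 18910950, plus strand) had 1.12, 1.71 and 1.12 CPM in OE, 14.2, 14.3 and 17.2 CPM in KD, 0.830, 0.501 and 1.06 CPM in VC, and 9.99, 10.6 and 8.46 CPM in WT libraries in normoxia. In hypoxia it had 0.661, 0.818 and 0.534 CPM in OE, 31.7, 31.5 and 29.4 CPM in KD, 0.497, 0.114 and 0.354 CPM in VC, and 17.2, 15.5 and 19.2 CPM in WT libraries. KD libraries were above WT, and OE and VC libraries below it, at each oxygen level. The log2 fold changes over WT in normoxia were -2.86 ± 0.19 for OE (edgeR, adjusted p = 3.62e-13), 0.65 ± 0.14 for KD (edgeR, adjusted p = 0.000879, and 0.0440 without replicate 3 of every group) and -3.64 ± 0.21 for VC. In hypoxia they were -4.66 ± 0.21 for OE (-4.67 without its first library), 0.83 ± 0.14 for KD and -5.75 ± 0.24 for VC. ADAMTSL3 had the same signs in normoxia, at -0.92 ± 0.09, 0.66 ± 0.09 and -3.31 ± 0.10. Relative to VC cells, ADAMTSL3 was higher in OE cells in hypoxia, by 2.97 (3.01 without the first OE library). ADAMTSL2, which binds LTBP1 and fibrillin (chromosome 9, 133532164 to 133575519, plus strand), had counts in VC libraries alone, with 5.17, 5.31 and 4.43 CPM in normoxia and 4.97, 5.39 and 4.96 CPM in hypoxia. Its 254 counts in VC against 0 in WT libraries in normoxia were at least 86.5-fold higher, and its 245 counts in hypoxia at least 77.4-fold higher. ADAMTSL4, known for its part in the anchoring of the lens, was higher in VC cells, by 1.33 ± 0.11 in normoxia and 1.52 ± 0.11 in hypoxia.

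Of the 5 inhibitors, 1 was higher and 2 lower in OE, 0 higher and 2 lower in KD, and 0 higher and 4 lower in VC against WT cells in normoxia, with medians of -0.06, -0.20 and -1.03 beside 0.00, 0.00 and 0.03 over all genes. The shares of all genes called higher and lower were 9.48% and 10.2% in OE, 6.61% and 9.71% in KD, and 19.8% and 16% in VC cells. TIMP3, the inhibitor held in the matrix that also blocks ADAM17 (chromosome 22, 32801705 to 32863041, plus strand), had 2327, 2339 and 2032 CPM in OE, 1069, 1054 and 963 CPM in KD, 721, 706 and 621 CPM in VC, and 1562, 1607 and 1419 CPM in WT libraries in normoxia. The hypoxia values were 1693, 1946 and 1806 CPM in OE, 665, 718 and 625 CPM in KD, 225, 230 and 197 CPM in VC, and 1151, 1148 and 1073 CPM in WT libraries. The lines kept the order OE, WT, KD, VC with no overlap at both levels. Its log2 fold changes over WT in normoxia were 0.55 ± 0.08 for OE (edgeR, adjusted p = 2.69e-06), -0.57 ± 0.08 for KD (edgeR, adjusted p = 1.73e-06) and -1.16 ± 0.08 for VC. In hypoxia they were 0.69 ± 0.08 for OE (0.72 without its first library), -0.75 ± 0.08 for KD and -2.37 ± 0.08 for VC. Against VC cells, OE cells were higher by 1.71 ± 0.08 in normoxia and 3.06 ± 0.09 in hypoxia (3.09 without the first OE library).

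TIMP1, a soluble inhibitor of most MMPs (chromosome X, 47582408 to 47586789, plus strand), had 161, 151 and 193 CPM in OE, 463, 458 and 507 CPM in KD, 190, 183 and 202 CPM in VC, and 339, 342 and 389 CPM in WT libraries in normoxia. KD libraries were above and OE and VC libraries below all WT libraries. It was called lower in OE (-1.08 ± 0.17; edgeR, adjusted p = 3.62e-05) and VC cells (-0.90 ± 0.17), and both calls were lost without replicate 2 of every group (edgeR, adjusted p = 0.0127 and 0.0147). Its values in KD cells did not pass, at 0.42 ± 0.16 in normoxia (edgeR, adjusted p = 0.0799) and 0.58 ± 0.16 in hypoxia (edgeR, adjusted p = 0.0119). In hypoxia OE cells were lower by -1.01 ± 0.17 (-0.78 without the first OE library), a call lost in a fit of the compared libraries alone (edgeR, adjusted p = 0.0167). TIMP2 was lower in OE (-0.54 ± 0.09 in normoxia and -0.53 ± 0.09 in hypoxia, -0.41 without the first library) and VC cells (-1.48 ± 0.09 and -1.60 ± 0.09), and the OE call in hypoxia was lost in a fit of the compared libraries alone (edgeR, adjusted p = 0.0173). Relative to VC cells, TIMP2 was higher in OE cells in hypoxia, by 1.07 (1.19 without the first OE library). TIMP4 was at the lower edge of detection, with 0.123, 0.104 and 0.127 CPM in KD against 1.10, 1.12 and 2.15 CPM in WT libraries in normoxia, and was lower in KD cells at both oxygen levels (-3.53 ± 0.50 and -3.43 ± 0.56). RECK was lower in VC cells, by -1.03 ± 0.08 in normoxia and -1.06 ± 0.08 in hypoxia, and was not called in OE or KD cells.

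With hypoxia set against normoxia within each line, members were called in shares of 15% in OE, 20% in KD, 28.3% in VC and 23.3% in WT cells. In OE cells 9 of 60 were called, 4 higher and 5 lower, where 13.9% of all genes were called (6.47% higher, 7.40% lower). In KD cells 12 were called, 10 higher and 2 lower, where 19.1% were called (10.4% higher, 8.72% lower). In VC cells 17 were called, 5 higher and 12 lower, where 21.0% were called (10.3% higher, 10.7% lower). In WT cells 14 were called, 6 higher and 8 lower, where 21.1% were called (9.86% higher, 11.2% lower). Without the first OE library in hypoxia the count in OE cells was 12, with TIMP1, TIMP2, ADAM10, ADAMTSL3 and ADAMTSL5 added and ADAMTS1 and ADAMTS2 lost, and in a fit of the OE libraries alone it was 2.

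The gelatinases, MMP1 and MMP16 were higher in hypoxia wherever they were called, while MMP24 was lower in VC (-1.91 ± 0.16) and WT cells (-0.42 ± 0.11, a call lost without any of 4 of the 6 WT libraries, at an adjusted p of 0.0137 to 0.0463 in edgeR). MMP16 was higher in OE (0.80 ± 0.10, and 0.77 without the first library; edgeR, adjusted p = 8.68e-07 with it), KD (0.56 ± 0.10) and WT cells (0.56 ± 0.10). The KD and WT calls were lost without replicate 2 of every group (edgeR, adjusted p = 0.0119 and 0.0187). MMP2 was higher in KD (0.76 ± 0.14) and WT cells (0.75 ± 0.14; edgeR, adjusted p = 0.000259). Both calls were lost without replicate 2 of every group (edgeR, adjusted p = 0.0242 and 0.0296). MMP9 was higher in KD cells (1.68 ± 0.28; edgeR, adjusted p = 0.000249, and 0.0115 without replicate 3 of every group) and in VC cells (2.25 ± 0.53; edgeR, adjusted p = 0.00386, and 0.0108 to 0.0226 without any of 5 of the 6 VC libraries). In WT cells its value of 1.11 ± 0.30 did not pass (edgeR, adjusted p = 0.0108). MMP1 was higher in VC cells, with 10.2, 14.0 and 12.9 CPM in hypoxia against 0.766, 0.953 and 1.26 CPM in normoxia (3.64 ± 0.64; edgeR, adjusted p = 0.000243, and 0.0196 without replicate 3 of every group).

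The proteoglycanases and TIMP3 were lower in hypoxia wherever they were called. ADAMTS5 was lower in KD (-0.90 ± 0.26), VC (-1.63 ± 0.21) and WT cells (-1.38 ± 0.21; edgeR, adjusted p = 6.86e-06). The KD call was lost without, among others, KD replicate 1 in normoxia (edgeR, adjusted p = 0.0966). ADAMTS9 was lower in OE (-0.60 ± 0.13, and -0.50 without the first library, a call lost without replicate 2 or 3 of every group at an adjusted p of 0.0174 and 0.0115 in edgeR), VC (-1.08 ± 0.14) and WT cells (-1.02 ± 0.14). ADAMTS1, an ADAMTS that also binds VEGF165, was lower in VC cells, with 3.73, 5.05 and 3.68 CPM in hypoxia against 12.3, 14.9 and 13.0 CPM in normoxia (-1.68 ± 0.18; edgeR, adjusted p = 1.76e-08). In OE cells it was lower by -0.66 ± 0.17, a call lost without the first OE library (edgeR, adjusted p = 0.0103) or without any of 3 others (up to 0.0497 without OE replicate 3 in normoxia). TIMP3 was called lower in all 4 lines, by -0.30 ± 0.08 in OE (-0.24 without the first library), -0.62 ± 0.08 in KD, -1.65 ± 0.08 in VC and -0.44 ± 0.08 in WT cells (edgeR, adjusted p = 0.00687, 4.40e-07, 1.29e-15 and 5.82e-05). The call in OE cells was lost without any of several other libraries, at an adjusted p of up to 0.0413 in edgeR without OE replicate 2 in normoxia, and in a fit of the OE libraries alone (0.103). ADAMTS2 was lower in WT cells (-0.62 ± 0.12; edgeR, adjusted p = 0.000119) and in VC cells, where 3 counts in hypoxia against 38 in normoxia gave a level 11.9-fold lower (95% counting interval 3.79 to 60.4).

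**Figure D4:**
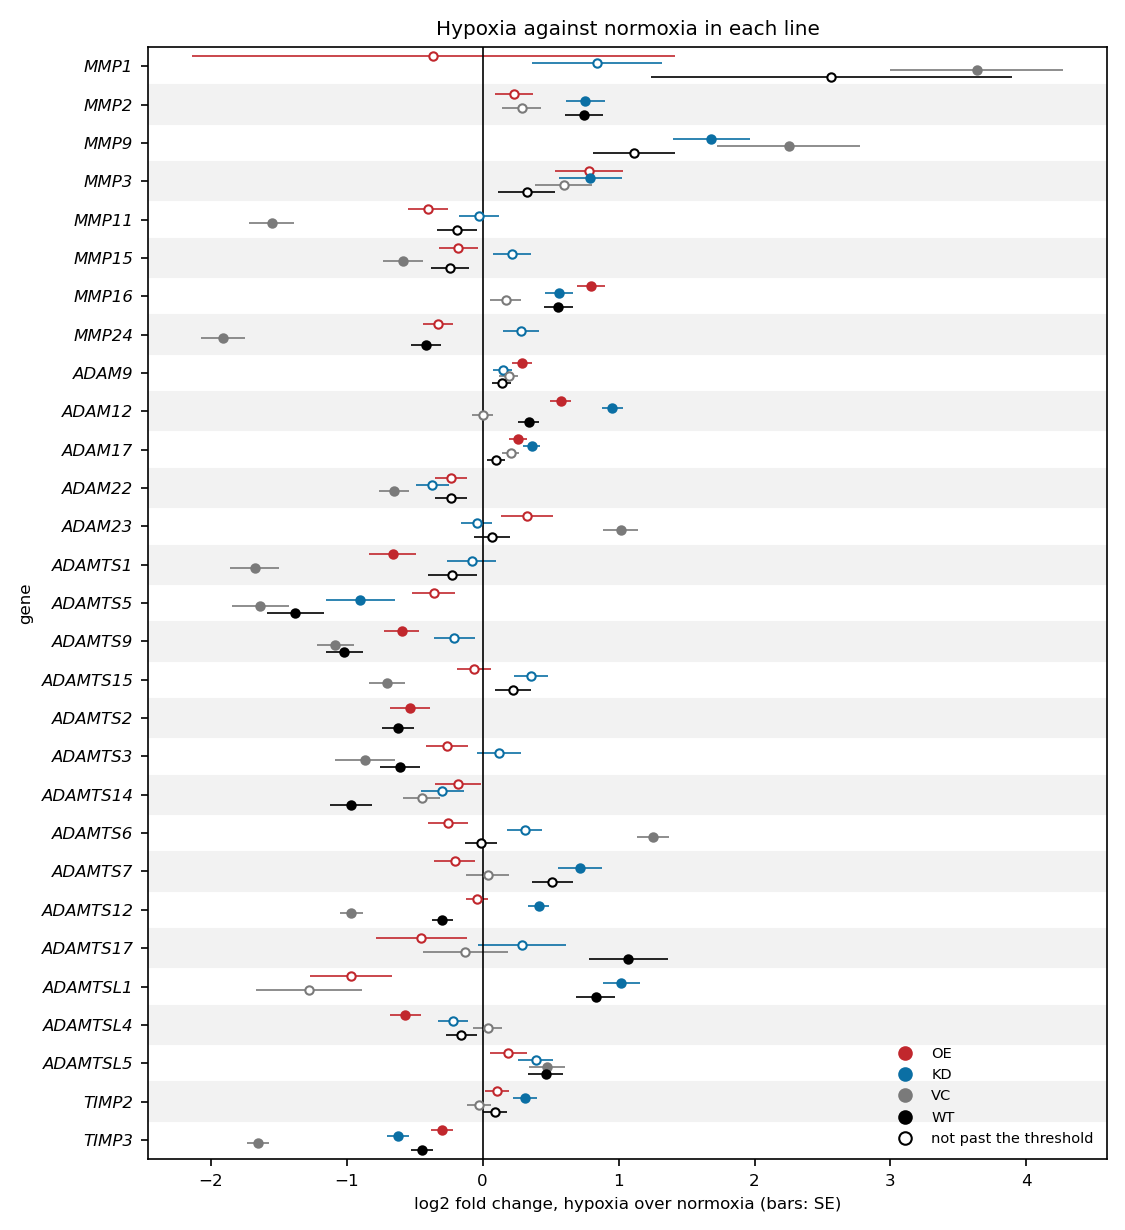
Log2 fold change of hypoxia over normoxia in OE, KD, VC and WT cells for the 29 members called in at least 1 line, with bars for the SE, filled points for an adjusted p under 0.01 and open points otherwise; points are left out where a group had 3 or fewer counts. TIMP3 lies below 0 in all 4 lines, from -0.30 in OE to -1.65 in VC cells, and ADAM12 above 0 in OE, KD and WT cells, at 0.58, 0.96 and 0.34.

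ADAM12 was the ADAM called higher in hypoxia in most lines, in 3 of the 4, while ADAM23 was called in VC cells alone (1.02 ± 0.13). It had 225, 265 and 281 CPM in OE cells in hypoxia against 174, 167 and 176 CPM in normoxia. In KD cells it had 359, 359 and 352 CPM against 187, 170 and 195 CPM, and in WT cells 268, 229 and 243 CPM against 197, 194 and 194 CPM. VC cells showed no such shift, with 74.8, 84.0 and 88.5 CPM in hypoxia against 82.7, 84.6 and 80.0 CPM in normoxia. Hypoxia and normoxia did not overlap in OE, KD and WT cells, where the log2 fold changes were 0.58 ± 0.08 (0.67 without the first OE library), 0.96 ± 0.08 (edgeR, adjusted p = 5.66e-11) and 0.34 ± 0.08 (edgeR, adjusted p = 0.000975, and 0.0147 without WT replicate 1 in hypoxia or 0.0139 without replicate 2 of every group). The response in KD cells exceeded that in WT cells by 0.62 ± 0.11 (interaction; edgeR, adjusted p = 0.00112, 0.0112 without KD replicate 2 in normoxia, and 0.345 and 0.0332 without replicate 2 or replicate 3 of every group).

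The bases before the start site of ADAM12 are shown for the core of the hypoxia response element, ACGTG, which HIF binds. They come from RefSeq (GRCh38.p14, chr10:126388478-126388727, minus strand, printed 5′ to 3′ up to the start), and capitals mark the core or its reverse complement at -209 and -174. The core was found in 14 of the 44 members with an entry (31.8%) and in 21.4% of all promoters, in the same window as above. Such a match is again a description and not a site, and binding of HIF was not tested.
ADAM12: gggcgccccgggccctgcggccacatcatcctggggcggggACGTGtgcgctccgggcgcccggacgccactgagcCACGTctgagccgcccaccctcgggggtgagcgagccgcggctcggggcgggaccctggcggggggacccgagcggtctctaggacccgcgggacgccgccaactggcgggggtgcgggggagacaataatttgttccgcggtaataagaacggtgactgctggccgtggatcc

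The difference of the hypoxia responses between lines was tested as an interaction. For OE minus WT cells 1 of 60 members was called, and it was lower, where 6.18% of all genes were called (3.33% higher, 2.85% lower). It was ADAMTSL1 (-1.80 ± 0.33; edgeR, adjusted p = 0.000347, and 0.0178 without replicate 3 of every group), which was -0.97 ± 0.30 in OE cells, not called, and 0.83 ± 0.14 in WT cells. Without the first OE library in hypoxia 6 were called, with ADAMTS14 (0.97), ADAM12 (0.32), ADAM10 (-0.37), ADAMTS7 (-0.47) and ADAMTS5 (1.10) added. For KD minus WT cells 2 were called, both higher, where 0.985% of all genes were called (0.675% higher, 0.31% lower). They were ADAM12 and ADAMTS12 (0.71 ± 0.11; edgeR, adjusted p = 0.000236, and 0.118 without replicate 2 of every group). For VC minus WT cells 10 were called, 2 higher and 8 lower, where 8.02% of all genes were (4.49% higher, 3.53% lower), a comparison added after the data were seen. ADAMTS12 was 0.41 ± 0.08 in KD, -0.97 ± 0.08 in VC and -0.30 ± 0.08 in WT cells, and the WT call was lost without any of 4 of its 6 libraries (edgeR, adjusted p = 0.0127 to 0.0341).

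Genes that act with these enzymes were taken from lists of known activators, partners and substrates. In the same comparisons in normoxia 9.48% of all genes were higher and 10.2% lower in OE, 6.61% higher and 9.71% lower in KD, and 19.8% higher and 16% lower in VC cells, with medians of 0.00, 0.00 and 0.03. Of 10 activators, 1 was higher and 4 lower in OE, 1 higher and 5 lower in KD, and 3 higher and 2 lower in VC against WT cells in normoxia, with medians of -0.34, -0.40 and 0.09. PLAU, the urokinase that makes plasmin, was at 13.1 ± 2.01 CPM in OE, 46.0 ± 1.71 CPM in KD, 182 ± 10.0 CPM in VC and 106 ± 0.962 CPM in WT cells (SD, n = 3 each), all in normoxia. FURIN, which cuts the propeptide of membrane-type MMPs, was called in no line against WT. PCSK5, a related convertase, was higher in OE (1.69 ± 0.13) and lower in KD cells (-1.52 ± 0.15) in normoxia.

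Of 8 EGF family ligands shed by ADAMs, 2 were higher and 1 lower in OE, 0 higher and 4 lower in KD, and 6 higher and 2 lower in VC cells in normoxia, with medians of -0.01, -1.11 and 1.44. TGFA, a substrate of ADAM17, was at 105 ± 9.07 CPM in OE, 1.15 ± 0.174 CPM in KD, 77.7 ± 4.42 CPM in VC and 54.1 ± 1.90 CPM in WT cells (SD, n = 3 each), all in normoxia. EREG was read almost only in VC cells. Of 9 partners of the sheddases, 1 was higher and 3 lower in OE, 3 higher and 3 lower in KD, and 2 higher and 3 lower in VC cells (medians -0.36, 0.01 and -0.32). Of 6 tested substrates of ADAMTS enzymes, 2 were higher and 0 lower in OE, 0 higher and 3 lower in KD, and 0 higher and 3 lower in VC cells (medians 0.58, -1.24 and -0.55). THBS1, an inhibitor of vessel growth, was lower in KD cells (-3.38 ± 0.10). Of 7 tested clearance and non-TIMP inhibitor genes, 1 was higher and 2 lower in OE, 1 higher and 2 lower in KD, and 3 higher and 3 lower in VC cells (medians -0.40, -0.71 and 0.03). TFPI2, a serine protease inhibitor of the matrix, was higher in OE (2.43 ± 0.15) and lower in KD cells (-1.01 ± 0.15). Of 6 tested astacin and procollagen processing genes, 2 were higher and 2 lower in OE, 0 higher and 2 lower in KD, and 1 higher and 3 lower in VC cells (medians -0.08, -0.32 and -1.26).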

How the data were processed

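RNA of 24 ARPE-19 libraries (8 groups of 3) was sequenced after ribosomal RNA depletion as single reads of 50 bases. Whole-number counts per gene were deposited by the authors; their heading and notes name STAR 2.27a, GRCh38 and the Ensembl 98 annotation, while the paper's methods name a UCSC transcript set, and the strand setting is not given in the sources used here. An alignment report deposited by the authors gave other values, the read totals and mapped shares. A TMM-normalized table of the same counts was not used.

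Genes whose counts over the 24 libraries reached 10 were fitted with edgeR 4.0.16 (TMM scaling, robust quasi-likelihood F-test, R 4.3.3) in 1 model of 8 groups, with Benjamini-Hochberg adjustment over all genes and a threshold of 0.01. The SE of a log2 fold change is its size divided by the square root of F. Where a group held few counts, this SE can fall below the counting error and overstates the precision. Among others this holds for ADAMTS2 in KD and VC, MMP19 in OE and ADAMTSL1 in VC cells. CPM are TMM-scaled. A group with 0 counts was set to a floor of 3 counts over the group, and with 1 to 3 counts the ratio has an exact 95% interval, which covers counting error only. Positions and exon lengths came from GENCODE, promoters from RefSeq (GRCh38.p14), for 44 of 73 members. The fit was tested on simulated data. DESeq2 1.42.0, other scalings and filters, a replicate block and left-out libraries were alternatives.

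Genes named in the text are the markers MMP9, MMP19 and ADAMTS2, members the study discusses for these libraries, the called members with the largest changes at 1 CPM or more whose libraries did not overlap (4 per direction between lines, 3 for hypoxia and interactions), members called in opposite directions in OE and KD cells, the 10 with the highest level, the TIMPs and RECK. MMP3, MMP11, MMP15, ADAM17, ADAMTS6, ADAMTS14, ADAMTSL4 and the partner genes fall outside that rule and were added after their values were seen. The members and lists were chosen with earlier results of these data known.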

Additional observations from a re-analysis of the deposited data

Results flagged for a closer look

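The hypoxia response of 11 members differed between a line and WT cells by an interaction term in edgeR, with Benjamini-Hochberg adjustment over all genes. The called shares of all genes were 6.18% for OE, 0.985% for KD and 8.02% for VC minus WT cells, beside 1.67%, 3.33% and 16.7% of the 60 members. Values are differences of log2 fold changes with their SE over 3 libraries a group. In OE minus WT cells ADAMTSL1 differed by -1.80 ± 0.33 (edgeR, adjusted p = 0.000347). In KD minus WT cells ADAMTS12 differed by 0.71 ± 0.11 and ADAM12 by 0.62 ± 0.11 (edgeR, adjusted p = 0.000236 and 0.00112). Of these calls, 0 of 1 in OE and 0 of 2 in KD minus WT cells held in every alternative fit.

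In VC minus WT cells 2 members were higher, ADAMTS6 by 1.27 ± 0.17 and ADAM23 by 0.94 ± 0.18. The other 8 were lower. TIMP3 differed by -1.21 ± 0.11, the smallest adjusted p of these (7.43e-09 in edgeR), MMP24 by -1.49 ± 0.20, MMP11 by -1.36 ± 0.22, ADAMTS1 by -1.46 ± 0.26, ADAMTS15 by -0.93 ± 0.19, ADAMTS12 by -0.67 ± 0.11, ADAMTSL1 by -2.11 ± 0.41 and ADAMTS2 by -2.80 ± 0.62. The value of ADAMTS2 rests on 3 counts in VC cells in hypoxia and depends on the prior count, and its call was lost without VC replicate 2 in hypoxia (-2.18; edgeR, adjusted p = 0.0196). The calls of ADAM23 and ADAMTSL1 in VC cells were lost without replicate 2 and replicate 3 of every group (edgeR, adjusted p = 0.0471 and 0.0357).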

How the results depend on the processing

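For 87 fold changes of named genes, 1515 alternative fits were made, of which 1458 kept direction and call, 57 kept direction without passing the threshold, and 0 reversed. They were mostly picked for size, and fits that left a gene untested were not counted. Of all called members, 19 of 27 in OE, 15 of 26 in KD and 27 of 34 in VC against WT in normoxia held in every alternative. In hypoxia 17 of 25, 14 of 20 and 30 of 36 did. Hypoxia against normoxia kept 2 of 9 in OE, 3 of 12 in KD, 12 of 17 in VC and 6 of 14 in WT cells. The interactions kept 0 of 1, 0 of 2 and 4 of 10 for OE, KD and VC minus WT. Among counts of called members, hypoxia in OE cells (9) became 16 at an adjusted p under 0.05 and 2 with only the libraries compared. The OE minus WT interaction (1) became 2 with RLE scaling, 3 with filterByExpr, 5 with at least 1 count, 6 at an adjusted p under 0.05, 2 with the replicate block and 4 with DESeq2, and the KD minus WT interaction (2) became 4, 5 and 4 at an adjusted p under 0.05, with only the libraries compared and with DESeq2. The cause was not tested. The VC minus WT interaction and its alternatives were added after the data were seen.

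With 1 library or replicate number left out, counts in normoxia ranged over 22 to 26 for OE, 17 to 24 for KD and 29 to 33 for VC against WT, and 29 to 36 for OE against VC. In hypoxia they were 22 to 28, 16 to 20, 32 to 38 and 33 to 42 in the same order. Hypoxia against normoxia gave 3 to 12 in OE, 5 to 12 in KD, 12 to 17 in VC and 6 to 14 in WT cells. The interactions gave 0 to 6, 0 to 3 and 6 to 10 for OE, KD and VC minus WT, and the test over the 3 lines 30 to 36 in normoxia and 28 to 36 in hypoxia.

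Replicate numbers are shared by all groups, and the column headings give them as sets, without saying what a set shares. Of 75 correlations between same-numbered libraries 20 were over 0.1 (-0.0628 to 0.155, median 0.0453, against -0.0484 for different numbers), all 20 between libraries of replicate 3. Some pairs of groups entered in both orders, so these counts and medians hold repeats. No pairing was assumed since not every pair passed. With the replicate block, counts were 28, 26, 33 and 36 in normoxia and 25, 20, 37 and 41 in hypoxia, in the order above, then 9, 12, 19 and 15 for hypoxia in OE, KD, VC and WT cells, 2, 2 and 10 for the interactions, and 36 and 36 over the 3 lines. Members below the floor of 0.150 to 0.252 CPM in a library cannot be told from absent.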
